A study of Mus musculus with 8 samples.

Results

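RNA of Merkel cells of the newborn mouse paw was compared with RNA of the epidermal cells around them. The members are the 4 libraries labelled as paw, of 8 in the series: 2 of Merkel cells and 2 of the cells that the submitters call IFE, an abbreviation not spelled out in the labels. The other 4 libraries hold the same cell types of back skin. They enter the filter on low counts, the scaling, the shared estimate of spread and the test between skin sites. All groups came from mice of the genotype Atoh1-GFP at postnatal day 0, so the IFE cells carried the allele too. Paw skin was digested with collagenase and trypsin. The sort took EpCAM-positive cells: those with GFP and without Sca1 became the Merkel libraries, those with Sca1 and without GFP the IFE libraries. Atoh1, Epcam and Ly6a (the Sca1 gene) therefore entered the gate, and their values describe it. The labels do not say whether a library was 1 animal or a pool, or whether the animals of a group differed between libraries. The p-values therefore reflect the spread of these samples alone, which may be technical. Counts covered 24538 genes, of which 15151 had enough counts over the 8 libraries to be tested. With the 4 paw libraries alone 13975 genes were tested. Some of the 15151, such as Tmc1, had 0 counts in all 4 paw libraries, and they count among the genes tested below.

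Merkel cells are touch receptors of the basal epidermis. They arise from epidermal progenitors under the transcription factor Atoh1, respond to pressure through the channel Piezo2, and signal to sensory nerve endings from dense-core granules. Keratinocytes of the basal layer divide, anchor the epidermis to the dermis and carry Krt5 and Krt14. They exchange these keratins for Krt1 and Krt10 as they move outward and build the skin barrier. Merkel cells carry simple epithelial keratins, Krt20 among them.

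Promoters of 3 of the marker genes are printed because these genes stand at both ends of the comparison: Atoh1 and Krt20 on the Merkel side and Krt5 on the side of the epidermis. Each window runs from 250 bases before to 50 bases after the RefSeq start, on GRCm38.p6, printed 5′ to 3′ on the strand of the gene. The windows are chr6:64728875-64729174, plus strand (Atoh1), chr11:99438104-99438403, minus strand (Krt20) and chr15:101712856-101713155, minus strand (Krt5). Krt14 is not printed because its table entry starts 1518 bases inside the annotated gene. Capitals mark matches, on either strand, to the letters CAGCTG or CAGATG, which are E-box forms read by basic helix-loop-helix factors such as Atoh1, and TATAAA, the TATA box.
Atoh1: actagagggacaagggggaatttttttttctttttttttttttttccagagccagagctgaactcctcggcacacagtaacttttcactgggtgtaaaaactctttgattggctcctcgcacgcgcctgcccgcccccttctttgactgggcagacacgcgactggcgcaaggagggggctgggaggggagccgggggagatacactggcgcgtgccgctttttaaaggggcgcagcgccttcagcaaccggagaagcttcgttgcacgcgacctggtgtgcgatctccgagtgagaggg
Krt20: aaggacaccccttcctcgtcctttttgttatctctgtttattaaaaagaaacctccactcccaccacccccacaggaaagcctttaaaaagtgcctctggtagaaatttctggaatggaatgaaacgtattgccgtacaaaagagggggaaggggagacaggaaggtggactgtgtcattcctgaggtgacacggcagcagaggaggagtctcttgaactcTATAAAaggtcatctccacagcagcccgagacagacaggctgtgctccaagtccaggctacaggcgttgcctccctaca
Krt5: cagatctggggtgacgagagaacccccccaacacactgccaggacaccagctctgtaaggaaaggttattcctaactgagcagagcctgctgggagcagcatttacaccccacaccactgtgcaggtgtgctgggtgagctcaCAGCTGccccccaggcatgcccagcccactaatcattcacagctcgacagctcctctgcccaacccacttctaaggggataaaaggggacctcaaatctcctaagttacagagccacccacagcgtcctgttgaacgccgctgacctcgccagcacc
The Krt20 window held TATAAA from 29 bases before its start, and the Krt5 window held CAGCTG from 107 bases before its start. The Atoh1 window held none of the motifs searched. Across all 27025 promoters in the RefSeq table CAGCTG was present in 16.1%, CAGATG in 17.2% and TATAAA in 14.2%. A match is a string of letters and not a measured binding site.

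The 2 Merkel libraries were less alike than the 2 IFE libraries, and this bears on every result below. Total counts were 19300202 and 12292015 in Merkel libraries 1 and 2 and 23197142 and 20016954 in IFE libraries 1 and 2. Values are given in this order throughout, as counts scaled to a common library total (CPM) after TMM scaling, which evens out depth and composition. Across genes the log2 CPM of the Merkel libraries correlated with r = 0.826, against 0.923 for the IFE libraries. Merkel library 1 stood nearer to the IFE libraries (0.802 and 0.789) than Merkel library 2 did (0.694 and 0.684). Genes are not independent replicates, so these correlations are descriptions. Among genes with at least 10 CPM in a library, 15.0% of 9392 differed more than 4-fold between the Merkel libraries, and 1.97% of 8793 did so between the IFE libraries. Malat1, a nuclear RNA, took 4.81% and 8.33% of the counts in the Merkel libraries and 2.56% and 2.97% in the IFE libraries.

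The labelled cell types were checked against markers. Atoh1 is printed with them, but it entered the gate, so its values describe the sort and do not check the labels. Atoh1 measured 304 and 284 CPM in the Merkel libraries and 0.0815 and 0.148 CPM in the IFE libraries (log2 fold change 11.27, SE 0.64, adjusted p = 3.19e-06). Krt20 measured 361 and 456 CPM in the Merkel libraries and 0.285 and 0.345 CPM in the IFE libraries (log2 fold change 10.31, SE 0.47, adjusted p = 8.41e-07). The touch channel Piezo2 reached 525 and 1207 CPM in the Merkel libraries and 13 and 10.8 CPM in the IFE libraries (log2 fold change 6.19, SE 0.47, adjusted p = 2.08e-05). Both Merkel libraries lay far above both IFE libraries for Krt20 and Piezo2, which were not in the gate, as well as for Atoh1. Krt5 (chromosome 15, 101707070 to 101712898) measured 1358 and 576 CPM in the Merkel libraries and 16517 and 13892 CPM in the IFE libraries (log2 fold change -3.97, SE 0.5, adjusted p = 0.000668). Krt14 (chromosome 11, 100203162 to 100207548) measured 424 and 196 CPM in the Merkel libraries and 2989 and 2978 CPM in the IFE libraries (log2 fold change -3.27, SE 0.44, adjusted p = 0.00102). Merkel library 1 held the higher level of both basal keratins among the Merkel libraries, and both were below the IFE libraries. Of the other gate genes, Epcam measured 317 and 325 CPM in the Merkel libraries and 182 and 209.6 CPM in the IFE libraries and Ly6a measured 1.82 and 0 CPM in the Merkel libraries and 20.9 and 20.5 CPM in the IFE libraries, and neither passed the threshold (adjusted p = 0.181 and 0.0917). Piezo2 had a log2 fold change of 5.47 without Merkel library 2. Krt5 had a log2 fold change of -4.72 without Merkel library 1. Krt14 had a log2 fold change of -3.92 without Merkel library 1.

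By the edgeR quasi-likelihood test at an adjusted p under 0.05, 941 of the 15151 genes differed between paw Merkel and paw IFE cells, or 6.21%. Of these 649 were higher in Merkel cells (4.28% of genes tested) and 292 were lower (1.93%). The balance rested on Merkel library 1. Without it 1101 genes were higher (7.27%) and 1066 were lower (7.04%), with 882 of the 941 genes among them. Without Merkel library 2 there were 428 higher (2.82%) and 121 lower (0.799%). The calls fell to 434 genes without IFE library 1 and to 392 without IFE library 2. In bulk RNA fewer cells of a type and less RNA per cell cannot be told apart.

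**Figure D1:**
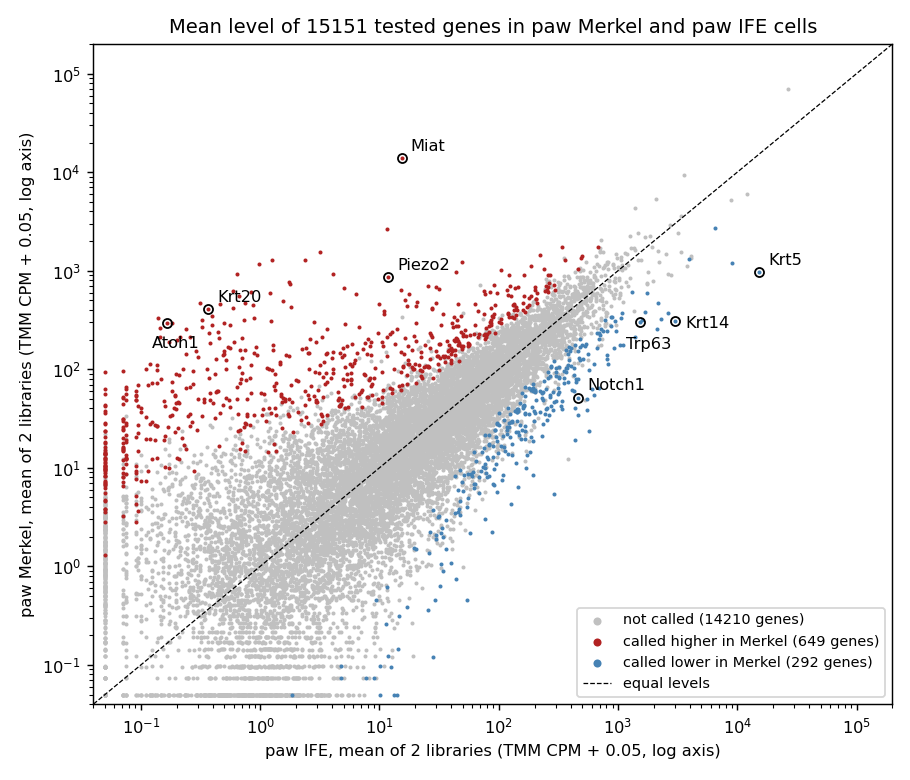
Mean level of each tested gene in paw IFE cells (x axis) and paw Merkel cells (y axis), in TMM-scaled CPM plus 0.05 on log axes, with genes called higher in red and lower in blue. The 649 genes above the line reach far from it at low IFE levels, while the 292 below it lie closer.

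Transcription factors of the Merkel and neuroendocrine lineages had the highest share of calls among the gene lists: 15 of 20 tested members were higher and 0 lower. Members and lists were chosen with earlier results of these data known, and the gate gene Atoh1 is among the 15. The ranking therefore describes the lists as chosen and tests nothing. The median log2 fold change of the 20 was 9.48, or 8.63 when genes absent from IFE cells are set at their bound, against -0.04 over all genes. Myt1, a zinc finger factor of neuronal differentiation, measured 436 and 506 CPM in the Merkel libraries and 0.285 and 0.247 CPM in the IFE libraries (log2 fold change 10.75, SE 0.47, adjusted p = 8.41e-07). Isl1, a LIM homeodomain factor, measured 282 and 407 CPM in the Merkel libraries and 0.244 and 0.444 CPM in the IFE libraries (log2 fold change 9.96, SE 0.52, adjusted p = 2e-06). Insm1, a neuroendocrine zinc finger repressor, measured 588 and 347 CPM in the Merkel libraries and 0.448 and 0.938 CPM in the IFE libraries (log2 fold change 9.4, SE 0.55, adjusted p = 3.19e-06). The 2 Merkel libraries differed by less than 2-fold for each of these. Gfi1, a repressor that acts beside Atoh1 in hair cells of the ear, measured 162 and 508 CPM in the Merkel libraries and 0.0815 and 0.0987 CPM in the IFE libraries (log2 fold change 11.76, SE 0.83, adjusted p = 1.17e-05). Lhx3, a LIM homeodomain factor, measured 64.4 and 126 CPM in the Merkel libraries and 0.0407 and 0 CPM in the IFE libraries, with 1 count in the IFE libraries (ratio 3831, 95% Poisson interval 688 to 151299). Pou4f3, a POU factor of hair cells, measured 66.7 and 18.8 CPM in the Merkel libraries and 0 counts in the IFE libraries and was at least 752-fold higher, taking a floor of 3 counts over the IFE group. All libraries of the 2 cell types were separate for these factors. Insm1 had a log2 fold change of 10.0 without IFE library 2. Gfi1 had a log2 fold change of 12.36 without Merkel library 1 and 10.72 without Merkel library 2. The Lhx3 ratio was at least 577 without IFE library 1 and 2098 (377 to 82874) without IFE library 2. The bound for Pou4f3 was at least 281 without Merkel library 1. A bound against a gene at 0 in both IFE libraries also falls when the floor is set over 1 of them, to 340.0-fold for Pou4f3 without IFE library 1 and 412-fold without IFE library 2, and the other bounds against IFE cells fall by the same factors.

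Among 5 tested keratins of simple epithelia 3 were higher and 0 lower. Besides Krt20, Krt8 measured 624 and 240.1 CPM in the Merkel libraries and 0.204 and 3.36 CPM in the IFE libraries (log2 fold change 7.94, SE 1.06, adjusted p = 0.001), and its partner Krt18 measured 101 and 105 CPM in the Merkel libraries and 0 and 2.17 CPM in the IFE libraries (log2 fold change 6.58, SE 1.44, adjusted p = 0.0206). These keratins pair to form the filaments of simple epithelia. The IFE level of both came mostly from IFE library 2, where Krt8 stood at 3.36 CPM. Krt8 had a log2 fold change of 7.09 without Merkel library 1, 7.0 without IFE library 1 and 11 without IFE library 2. Krt18 lost its call without Merkel library 2 (adjusted p = 0.0658), and its log2 fold change was 5.56 without IFE library 1 and 13.84 without IFE library 2.

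Most channels of mechanical and chemical sensing did not pass the test. The share called higher was 6.9%, against 4.28% of all genes tested. Of 29 tested members 2 were higher and 0 lower, with a median log2 fold change of -0.00, and the higher count was 3 without Merkel library 1, 2 without Merkel library 2, 1 without IFE library 1 and 1 without IFE library 2. Apart from Piezo2 the called gene was Tmc2, a subunit of the transduction channel of hair cells, at 5.46 and 10.7 CPM in the Merkel libraries and 0.0407 and 0 CPM in the IFE libraries, with 1 count in the IFE libraries (ratio 325, 95% Poisson interval 58.3 to 12836). Genes of the hair bundle, the sensory organelle of the inner ear, had 3 higher of 18 tested (16.7%) and 0 lower. Adgrv1, a long adhesion receptor of that organelle, measured 15.3 and 82.7 CPM in the Merkel libraries and 0.0815 and 0 CPM in the IFE libraries, with 2 counts in the IFE libraries (ratio 859, 95% Poisson interval 238 to 7094). Ush1g, a scaffold protein, measured 3.93 and 5.35 CPM in the Merkel libraries and 0 counts in the IFE libraries and was at least 65.9-fold higher. Myo15, a motor of stereocilia tips, measured 45.1 and 104 CPM in the Merkel libraries and 1.22 and 5.92 CPM in the IFE libraries (log2 fold change 4.39, SE 1.05, adjusted p = 0.031). Tmc2 and Ush1g lay at low levels in both Merkel libraries, and Adgrv1 and Myo15 were higher in Merkel library 2. In the hair bundle list the higher count was 4 without Merkel library 1, 2 without Merkel library 2, 1 without IFE library 1 and 2 without IFE library 2. Tmc2 lost its call without IFE library 1 (adjusted p = 0.082) and IFE library 2 (adjusted p = 0.125). Ush1g lost its call without IFE library 1 (adjusted p = 0.14) and IFE library 2 (adjusted p = 0.134). Myo15 lost its call without Merkel library 2 (adjusted p = 0.134) and IFE library 1 (adjusted p = 0.173), and its log2 fold change was 5.92 without IFE library 2. The Tmc2 ratio was at least 49 without IFE library 1 and 178 (31.9 to 7031) without IFE library 2. The Adgrv1 ratio was 1853 (513 to 15298) without Merkel library 1, 343 (94.8 to 2828) without Merkel library 2, at least 259 without IFE library 1 and 471 (130.3 to 3886) without IFE library 2.

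In the machinery of vesicle release 20 of 41 tested genes were higher and 0 lower, with a median log2 fold change of 4.64 (4.57 at bounds). The higher count was 21 without Merkel library 1, 15 without Merkel library 2, 16 without IFE library 1 and 14 without IFE library 2, and 1 gene was lower without Merkel library 1. Rab3c, a small GTPase of secretory vesicles, measured 659 and 1671 CPM in the Merkel libraries and 1.06 and 0.79 CPM in the IFE libraries (log2 fold change 10.28, SE 0.6, adjusted p = 3.19e-06). Cadps, which primes dense-core vesicles, measured 159.8 and 368 CPM in the Merkel libraries and 0.0407 and 0.148 CPM in the IFE libraries (log2 fold change 11.41, SE 0.75, adjusted p = 6.4e-06). Syt13, a member of the synaptotagmin family, measured 554 and 785 CPM in the Merkel libraries and 4.4 and 5.63 CPM in the IFE libraries (log2 fold change 7.06, SE 0.41, adjusted p = 3.19e-06). Sv2c, a vesicle membrane glycoprotein, measured 197 and 272 CPM in the Merkel libraries and 0.244 and 0.395 CPM in the IFE libraries (log2 fold change 9.51, SE 0.51, adjusted p = 2.2e-06). The 4 genes were each higher in Merkel library 2 than in library 1, and both libraries were above every IFE value. Rab3c had a log2 fold change of 9.46 without Merkel library 2. Cadps had a log2 fold change of 10.69 without Merkel library 2, 10.73 without IFE library 1 and 12.43 without IFE library 2.

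Dense-core granule and peptide genes followed, with 10 of 16 tested members higher and 0 lower (median log2 fold change 7.22, or 6.17 at bounds). Chga, a granin that packs granules, measured 42.7 and 50.5 CPM in the Merkel libraries and 0.163 and 0.148 CPM in the IFE libraries (log2 fold change 8.16, SE 0.82, adjusted p = 0.000128). Its relative Chgb measured 76.2 and 230.3 CPM in the Merkel libraries and 0.448 and 0.444 CPM in the IFE libraries (log2 fold change 8.4, SE 0.66, adjusted p = 2.43e-05). Cpe, the carboxypeptidase that trims prohormones, measured 486 and 1063 CPM in the Merkel libraries and 0.896 and 2.47 CPM in the IFE libraries (log2 fold change 8.85, SE 0.83, adjusted p = 8.71e-05). The prohormone convertase Pcsk1 measured 16.4 and 28.7 CPM in the Merkel libraries and 0.0407 and 0.0493 CPM in the IFE libraries, with 2 counts in the IFE libraries (ratio 461, 95% Poisson interval 128 to 3809). Both Merkel libraries carried these transcripts and the IFE libraries held few reads of them. Chgb had a log2 fold change of 8.99 without Merkel library 1 and 7.39 without Merkel library 2. Cpe had a log2 fold change of 8.19 without Merkel library 2 and 9.74 without IFE library 2. 

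Of 19 tested calcium and sodium channel subunits 6 were higher and 0 lower (median log2 fold change 2.66). Cacna2d1, an auxiliary calcium channel subunit, measured 227 and 877 CPM in the Merkel libraries and 0.53 and 0.691 CPM in the IFE libraries (log2 fold change 9.81, SE 0.81, adjusted p = 3.41e-05). Cacna1a, the pore of P/Q-type calcium channels, measured 116 and 293 CPM in the Merkel libraries and 2.32 and 2.81 CPM in the IFE libraries (log2 fold change 6.31, SE 0.55, adjusted p = 4.74e-05). Cacna1b, the pore of N-type channels, measured 87 and 246 CPM in the Merkel libraries and 0.326 and 1.43 CPM in the IFE libraries (log2 fold change 7.58, SE 0.82, adjusted p = 0.000231). Each was at least 2-fold higher in Merkel library 2 than in library 1. Nalcn, a sodium leak channel, measured 47.8 and 135 CPM in the Merkel libraries and 1.22 and 0.0987 CPM in the IFE libraries (log2 fold change 7.06, SE 1.12, adjusted p = 0.0032). Cacna2d1 had a log2 fold change of 10.48 without Merkel library 1 and 8.53 without Merkel library 2. Cacna1a had a log2 fold change of 5.5 without Merkel library 2. Cacna1b had a log2 fold change of 6.65 without Merkel library 2, 6.85 without IFE library 1 and 8.97 without IFE library 2. Nalcn had a log2 fold change of 6.12 without Merkel library 2, 9.75 without IFE library 1 and 6.22 without IFE library 2.

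Potassium channels were higher for 15 of 44 tested members and lower for 0 (median log2 fold change 3.67). The higher count was 16 without Merkel library 1, 10 without Merkel library 2, 8 without IFE library 1 and 10 without IFE library 2, with 2 lower without Merkel library 1. Kcna4, a channel of A-type current, measured 93.2 and 303 CPM in the Merkel libraries and 0.204 and 0.0987 CPM in the IFE libraries (log2 fold change 10.26, SE 0.8, adjusted p = 2.45e-05). Kcnh8, of the ether-a-go-go family, measured 35.5 and 90.1 CPM in the Merkel libraries and 0 counts in the IFE libraries and was at least 809-fold higher. Kcnv1, a silent subunit that modifies other channels, measured 50.8 and 171 CPM in the Merkel libraries and 0.774 and 0.79 CPM in the IFE libraries (log2 fold change 7.14, SE 0.7, adjusted p = 0.000109). Kcnd2, another A-type channel, measured 20.5 and 76.2 CPM in the Merkel libraries and 0 and 0.0493 CPM in the IFE libraries, with 1 count in the IFE libraries (ratio 1770.5, 95% Poisson interval 318 to 69929). All 4 were higher in Merkel library 2. Kcna4 had a log2 fold change of 10.87 without Merkel library 1, 9.17 without Merkel library 2 and 10.87 without IFE library 1. Kcnv1 had a log2 fold change of 7.76 without Merkel library 1 and 6.01 without Merkel library 2. The bound for Kcnh8 was at least 1345 without Merkel library 1 and at least 529.7 without Merkel library 2. The Kcnd2 ratio was 3412 (612 to 134773) without Merkel library 1, 917 (165 to 36219) without Merkel library 2, 801 (144 to 31625) without IFE library 1 and at least 323 without IFE library 2.

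Among transmitter genes 3 of 16 were higher and 2 lower, and the lower count was 1 when Merkel library 2 or either IFE library was left out. With all libraries 18.75% were higher and 12.5% lower, against 4.28% and 1.93% of all genes tested. Slc17a8, a vesicular glutamate transporter, measured 21.5 and 63 CPM in the Merkel libraries and 0.122 and 0.0987 CPM in the IFE libraries (log2 fold change 8.48, SE 0.85, adjusted p = 0.000128). Its relative Slc17a6 measured 3.21 and 4.24 CPM in the Merkel libraries and 0 counts in the IFE libraries, at least 53.2-fold higher. Th, the enzyme that starts catecholamine synthesis, measured 15.4 and 12.2 CPM in the Merkel libraries and 0 counts in the IFE libraries, at least 214-fold higher. All of these were near or at 0 in both IFE libraries. Lower in Merkel cells were Slc1a3, a glutamate uptake carrier, at 13.6 and 3.04 CPM in the Merkel libraries and 184 and 207 CPM in the IFE libraries (log2 fold change -4.54, SE 0.77, adjusted p = 0.00493), and the serotonin carrier Slc6a4 at 2.73 and 1.57 CPM in the Merkel libraries and 35.9 and 29.4 CPM in the IFE libraries (log2 fold change -3.91, SE 0.8, adjusted p = 0.0141). Slc17a8 had a log2 fold change of 7.51 without Merkel library 2. Th lost its call without IFE library 1 (adjusted p = 0.0696) and IFE library 2 (adjusted p = 0.066). Slc1a3 had a log2 fold change of -6.0 without Merkel library 1 and -3.84 without Merkel library 2. Slc6a4 lost its call without Merkel library 2 (adjusted p = 0.0664), IFE library 1 (adjusted p = 0.0977) and IFE library 2 (adjusted p = 0.0739). 

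Regulators of splicing and RNA binding had 8 higher and 1 lower of 28 tested (median log2 fold change 1.42). That is 28.6% higher and 3.57% lower, against 4.28% and 1.93% of all genes tested. The higher count was 10 without Merkel library 1, 4 without Merkel library 2, 2 without IFE library 1 and 3 without IFE library 2. Rbm24, a splicing factor of muscle and hair cells, measured 361 and 227 CPM in the Merkel libraries and 0.163 and 0.0987 CPM in the IFE libraries (log2 fold change 11.04, SE 0.72, adjusted p = 6.18e-06). Elavl4, a neuronal RNA-binding protein, measured 18.5 and 35.9 CPM in the Merkel libraries and 0.163 and 0 CPM in the IFE libraries (log2 fold change 8.2, SE 1.4, adjusted p = 0.00671). Mbnl1, the called member that was lower, measured 201 and 241 CPM in the Merkel libraries and 703 and 721 CPM in the IFE libraries (log2 fold change -1.69, SE 0.31, adjusted p = 0.00757). Rbm24 was nearly silent in the IFE libraries, while Mbnl1 was well expressed in both cell types. Elavl4 had a log2 fold change of 11.86 without IFE library 1 and 7.32 without IFE library 2. Mbnl1 lost its call without IFE library 2 (adjusted p = 0.0569).

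Genes of the neuronal cytoskeleton were higher for 11 of 28 tested members and lower for 0 (median log2 fold change 3.92). Kif1a, an axonal motor of dense-core vesicles, measured 417 and 412 CPM in the Merkel libraries and 0.489 and 0.592 CPM in the IFE libraries (log2 fold change 9.57, SE 0.43, adjusted p = 8.41e-07). Kif5c, a kinesin heavy chain, measured 69.7 and 184 CPM in the Merkel libraries and 0.204 and 0.543 CPM in the IFE libraries (log2 fold change 8.41, SE 0.79, adjusted p = 8.71e-05). Map2, a microtubule protein of dendrites, measured 471 and 909 CPM in the Merkel libraries and 41.9 and 17.6 CPM in the IFE libraries (log2 fold change 4.54, SE 0.52, adjusted p = 0.000347). The Merkel libraries agreed closely for Kif1a and differed about 2-fold or more for Kif5c. Synaptic adhesion genes had 9 higher and 2 lower of 31, with 1 lower when Merkel library 2 or either IFE library was left out. With all libraries 29.0% of the adhesion genes were higher and 6.45% lower, against 4.28% and 1.93% of all genes tested. Nfasc, an adhesion protein of axon initial segments, measured 392 and 837 CPM in the Merkel libraries and 0.774 and 0.79 CPM in the IFE libraries (log2 fold change 9.61, SE 0.62, adjusted p = 6.18e-06). Nrxn3, a presynaptic neurexin, measured 57 and 122 CPM in the Merkel libraries and 0.244 and 0.0493 CPM in the IFE libraries (log2 fold change 9.13, SE 0.77, adjusted p = 3.73e-05). Tenm2, a teneurin, went the other way at 57.8 and 58.3 CPM in the Merkel libraries and 248 and 209 CPM in the IFE libraries (log2 fold change -1.98, SE 0.33, adjusted p = 0.00432). Kif5c had a log2 fold change of 7.55 without Merkel library 2 and 9.23 without IFE library 2. Map2 had a log2 fold change of 5.29 without IFE library 1. Nfasc had a log2 fold change of 8.96 without Merkel library 2. Nrxn3 had a log2 fold change of 8.48 without Merkel library 2, 10.63 without IFE library 1 and 8.48 without IFE library 2.

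Among axon guidance genes 5 of 44 were higher and 7 lower. These made 11.4% higher and 15.9% lower, against 4.28% and 1.93% of all genes tested. For the neurotrophic genes below the shares were 0.0% higher and 12.5% lower. In the axon guidance list the calls depended on single libraries. Both counts moved when 1 library was left out: the higher was 4 without Merkel library 1, 3 without Merkel library 2, 3 without IFE library 1 and 2 without IFE library 2, and the lower 10 without Merkel library 1, 0 without Merkel library 2, 0 without IFE library 1 and 1 without IFE library 2. Epha5, an ephrin receptor, measured 13.2 and 55 CPM in the Merkel libraries and 0.163 and 0.0987 CPM in the IFE libraries (log2 fold change 7.93, SE 1.0, adjusted p = 0.000668), and the semaphorin Sema3e measured 131 and 297 CPM in the Merkel libraries and 5.79 and 0.74 CPM in the IFE libraries (log2 fold change 6.02, SE 0.85, adjusted p = 0.00151). Plxna1, a semaphorin receptor, was lower at 165 and 97.7 CPM in the Merkel libraries and 501 and 439 CPM in the IFE libraries (log2 fold change -1.84, SE 0.36, adjusted p = 0.0118). Of 16 neurotrophic genes 0 were higher and 2 lower, and the lower count was 2 without Merkel library 1, 1 without Merkel library 2, 1 without IFE library 1 and 0 without IFE library 2. Il6st, the shared receptor of the interleukin 6 family, measured 153 and 100.2 CPM in the Merkel libraries and 427 and 594 CPM in the IFE libraries (log2 fold change -2.01, SE 0.34, adjusted p = 0.00498), and Gdnf, a neurotrophic ligand, measured 0.0959 and 0 CPM in the Merkel libraries and 9.49 and 10.6 CPM in the IFE libraries, with 2 counts in the Merkel libraries (ratio of IFE to Merkel 158, 95% Poisson interval 43.8 to 1306). Epha5 had a log2 fold change of 8.62 without Merkel library 1 and 6.57 without Merkel library 2. Sema3e had a log2 fold change of 5.31 without Merkel library 2, 8.16 without IFE library 1 and 5.2 without IFE library 2. Plxna1 lost its call without Merkel library 2 (adjusted p = 0.0635), IFE library 1 (adjusted p = 0.0811) and IFE library 2 (adjusted p = 0.0501). Il6st lost its call without IFE library 2 (adjusted p = 0.0547). Gdnf lost its call without Merkel library 2 (adjusted p = 0.134), IFE library 1 (adjusted p = 0.134) and IFE library 2 (adjusted p = 0.154). The Gdnf ratio was at least 36.1 without Merkel library 1 and 104 (28.8 to 859) without Merkel library 2.

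**Figure D2:**
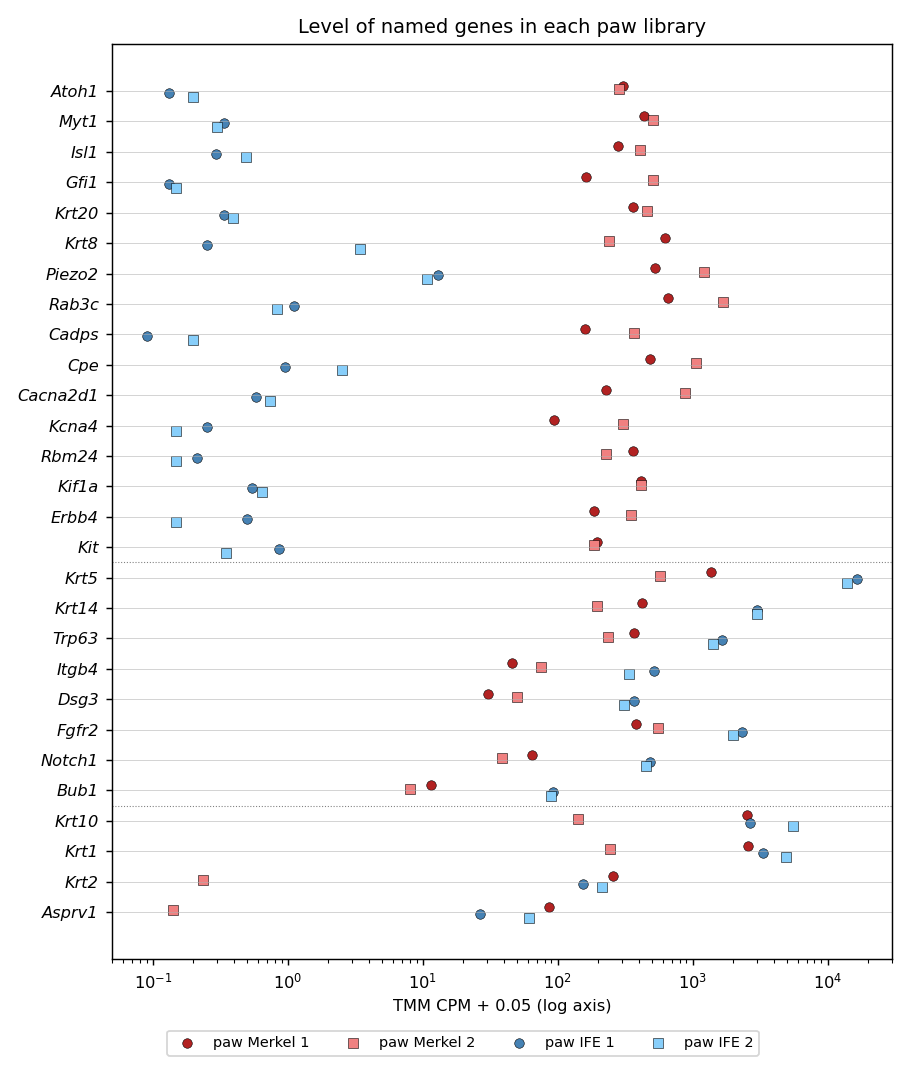
Level of 28 genes in each of the 4 paw libraries, in TMM-scaled CPM plus 0.05 on a log axis, with Merkel libraries in red and IFE libraries in blue. For the upper 16 genes both Merkel libraries lie above both IFE libraries, for the next 8 below them, and for Krt10, Krt1, Krt2 and Asprv1 Merkel library 1 lies with or near the IFE libraries and Merkel library 2 lies below them.

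On the side of the epidermis, 13 of 30 tested basal keratinocyte genes were lower in Merkel cells and 0 higher (median log2 fold change -1.76). The count was 20 without Merkel library 1 and 7 without either IFE library. Krt15, a basal keratin, measured 473 and 180.0 CPM in the Merkel libraries and 2288 and 2259 CPM in the IFE libraries (log2 fold change -2.8, SE 0.46, adjusted p = 0.00401). The stratified epithelium regulator Trp63 measured 366 and 238 CPM in the Merkel libraries and 1656 and 1419 CPM in the IFE libraries (log2 fold change -2.35, SE 0.33, adjusted p = 0.00147). Itgb4, the integrin of hemidesmosomes, measured 45.7 and 75.1 CPM in the Merkel libraries and 516 and 339 CPM in the IFE libraries (log2 fold change -2.82, SE 0.4, adjusted p = 0.00145). These genes were reduced and not absent: the median member stood at 28.8% of the IFE mean in Merkel library 1 and 24.1% in library 2. Krt15 had a log2 fold change of -3.66 without Merkel library 1.

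Of 40 tested junction genes 5 were lower and 3 higher. That is 12.5% lower and 7.5% higher, against 1.93% and 4.28% of all genes tested. The lower count was 9 without Merkel library 1, 3 without Merkel library 2, 3 without IFE library 1 and 3 without IFE library 2, and the higher 5 without Merkel library 1, 3 without Merkel library 2, 2 without IFE library 1 and 2 without IFE library 2. Dsg3, a desmosomal cadherin of the basal layer, measured 30.2 and 49.6 CPM in the Merkel libraries and 368 and 312 CPM in the IFE libraries (log2 fold change -3.09, SE 0.38, adjusted p = 0.000562). Its partner Dsc3 measured 405 and 362 CPM in the Merkel libraries and 1691 and 1696 CPM in the IFE libraries (log2 fold change -2.14, SE 0.3, adjusted p = 0.00131). Gja1, the gap junction protein connexin 43, measured 164 and 62.8 CPM in the Merkel libraries and 708 and 957 CPM in the IFE libraries (log2 fold change -2.87, SE 0.44, adjusted p = 0.00275). Cdh2, the neural cadherin, was higher at 14.2 and 14.1 CPM in the Merkel libraries and 0 counts in the IFE libraries, at least 212-fold, and Ctnnd2, a neural catenin, measured 102 and 171 CPM in the Merkel libraries and 9.86 and 13.2 CPM in the IFE libraries (log2 fold change 3.57, SE 0.65, adjusted p = 0.00739). The called cadherins went in opposite directions. Gja1 had a log2 fold change of -3.73 without Merkel library 1. Ctnnd2 lost its call without IFE library 1 (adjusted p = 0.0728). 

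Growth factor and receptor genes had 6 lower and 1 higher of 32 tested, and the lower count was 8 without Merkel library 1, 3 without Merkel library 2, 4 without IFE library 1 and 3 without IFE library 2. The share called higher, 3.125%, was near the 4.28% of all genes tested, and the share called lower was 18.75% against 1.93%. Fgfr2, the receptor for keratinocyte growth factors, measured 380.4 and 558 CPM in the Merkel libraries and 2337 and 2007 CPM in the IFE libraries (log2 fold change -2.21, SE 0.37, adjusted p = 0.00432). Fgfr3 measured 16.9 and 22.1 CPM in the Merkel libraries and 164 and 169.9 CPM in the IFE libraries (log2 fold change -3.1, SE 0.45, adjusted p = 0.00175). Within the epidermal growth factor receptor family the members parted: Erbb2 was lower at 43.2 and 12.3 CPM in the Merkel libraries and 259 and 210.2 CPM in the IFE libraries (log2 fold change -3.07, SE 0.54, adjusted p = 0.00602), while Erbb4 was higher at 187 and 349 CPM in the Merkel libraries and 0.448 and 0.0987 CPM in the IFE libraries (log2 fold change 9.85, SE 0.93, adjusted p = 8.71e-05). Erbb2 had a log2 fold change of -4.26 without Merkel library 1 and -2.44 without Merkel library 2. Erbb4 had a log2 fold change of 11.3 without IFE library 1 and 9.2 without IFE library 2.

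Notch genes were higher for 3 and lower for 3 of 24 tested, or 12.5% each, against 4.28% and 1.93% of all genes tested. The higher count was 3 without Merkel library 1, 1 without Merkel library 2, 1 without IFE library 1 and 1 without IFE library 2, and the lower 5 without Merkel library 1, 3 without Merkel library 2, 3 without IFE library 1 and 2 without IFE library 2. The receptors Notch1, at 64.2 and 38.8 CPM in the Merkel libraries and 479.6 and 452 CPM in the IFE libraries (log2 fold change -3.17, SE 0.45, adjusted p = 0.00147), and Notch2, at 55.9 and 24.8 CPM in the Merkel libraries and 222 and 283 CPM in the IFE libraries (log2 fold change -2.64, SE 0.43, adjusted p = 0.00404), were lower, while the receptor Notch4 was higher at 11.8 and 6.64 CPM in the Merkel libraries and 0.407 and 0.0493 CPM in the IFE libraries (log2 fold change 5.27, SE 1.34, adjusted p = 0.0403). Mfng, a glycosyltransferase that modifies Notch, was higher at 67.7 and 53.7 CPM in the Merkel libraries and 0 and 0.79 CPM in the IFE libraries (log2 fold change 7.28, SE 1.5, adjusted p = 0.015). Notch2 had a log2 fold change of -3.35 without Merkel library 1. Notch4 lost its call without Merkel library 2 (adjusted p = 0.0518), IFE library 1 (adjusted p = 0.102) and IFE library 2 (adjusted p = 0.261). Mfng had a log2 fold change of 6.25 without IFE library 1 and 13.07 without IFE library 2.

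In other signalling lists the calls were few in number. Hedgehog genes had 1 higher and 1 lower of 17: Disp2 measured 7.76 and 63.8 CPM in the Merkel libraries and 0 counts in the IFE libraries, at least 402-fold higher, and Gas1, a co-receptor, measured 23.7 and 17 CPM in the Merkel libraries and 223 and 146 CPM in the IFE libraries (log2 fold change -3.18, SE 0.5, adjusted p = 0.00289). WNT genes had 3 higher and 3 lower of 38. Their higher count was 3 without Merkel library 1, 1 without Merkel library 2, 1 without IFE library 1 and 0 without IFE library 2, and their lower count 6 without Merkel library 1, 1 without Merkel library 2, 1 without IFE library 1 and 0 without IFE library 2. Among those lower was the ligand Wnt3 at 3.98 and 0.277 CPM in the Merkel libraries and 45.8 and 69.7 CPM in the IFE libraries (log2 fold change -4.71, SE 1.01, adjusted p = 0.0181). BMP and TGF-beta genes had 1 higher and 2 lower of 29. Without either IFE library 0 were higher, and the lower count was 3 without Merkel library 1, 1 without Merkel library 2, 1 without IFE library 1 and 1 without IFE library 2. Those lower included the co-receptor Tgfbr3 at 47.3 and 62.5 CPM in the Merkel libraries and 300.2 and 236 CPM in the IFE libraries (log2 fold change -2.29, SE 0.45, adjusted p = 0.0119). In polycomb genes, which silence chromatin, 1 of 27 was higher, Jarid2, at 450.4 and 838 CPM in the Merkel libraries and 228 and 178 CPM in the IFE libraries (log2 fold change 1.66, SE 0.37, adjusted p = 0.0231). That list had 3 higher and 2 lower without Merkel library 1. The shares called higher were 3.7% of polycomb, 3.45% of BMP and TGF-beta and 5.88% of hedgehog genes, near the 4.28% of all genes tested. For WNT genes that share was 7.89%. The shares called lower were 5.88% of hedgehog, 7.89% of WNT, 6.9% of BMP and TGF-beta and 0.0% of polycomb genes, against 1.93% of all genes tested. Without Merkel library 1 the hedgehog list had 2 higher and 3 lower. Disp2 was much higher in Merkel library 2. Wnt3 lost its call without IFE library 2 (adjusted p = 0.0787), and its log2 fold change was -7.67 without Merkel library 1 and -3.86 without Merkel library 2. Tgfbr3 lost its call without IFE library 1 (adjusted p = 0.0798). Jarid2 lost its call without Merkel library 2 (adjusted p = 0.122), IFE library 1 (adjusted p = 0.102) and IFE library 2 (adjusted p = 0.205). The bound for Disp2 was at least 953 without Merkel library 1 and at least 116 without Merkel library 2.

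Some genes of cell division were lower. The shares called lower were 36.8% of mitosis and 14.0% of DNA replication genes, against 1.93% of all genes tested. In mitosis 14 of 38 tested members were lower and 0 higher (median log2 fold change -2.12), with 23 lower without Merkel library 1, 4 without Merkel library 2, 4 without IFE library 1 and 8 without IFE library 2. Bub1, a spindle checkpoint kinase, measured 11.5 and 8.02 CPM in the Merkel libraries and 93.1 and 88.7 CPM in the IFE libraries (log2 fold change -3.21, SE 0.48, adjusted p = 0.00205). Anln, which acts in cytokinesis, measured 72.2 and 91.9 CPM in the Merkel libraries and 359.7 and 348 CPM in the IFE libraries (log2 fold change -2.11, SE 0.33, adjusted p = 0.00281). In DNA replication 6 of 43 were lower and 0 higher, with 14 lower without Merkel library 1, 3 without Merkel library 2 and 0 without either IFE library. Pola1, a DNA polymerase subunit, measured 30.1 and 43.1 CPM in the Merkel libraries and 153 and 131 CPM in the IFE libraries (log2 fold change -1.96, SE 0.4, adjusted p = 0.0134). The median mitosis gene stood at 28.4% and 12.7% of the IFE mean in the Merkel libraries, and the median replication gene at 30.7% and 24.3%. Among regulators of cycle entry and exit, 3 of 22 were lower and 1 higher, with 5 lower without Merkel library 1. The share called higher, 4.55%, was near the 4.28% of all genes tested, and the share called lower was 13.6% against 1.93%. The cyclin Ccnd2 measured 208 and 147 CPM in the Merkel libraries and 1213 and 855 CPM in the IFE libraries (log2 fold change -2.54, SE 0.34, adjusted p = 0.000925), its partner kinase Cdk6 measured 343 and 285 CPM in the Merkel libraries and 1747 and 1463 CPM in the IFE libraries (log2 fold change -2.35, SE 0.4, adjusted p = 0.00464), and Rb1, the retinoblastoma protein that restrains cycle entry, was higher at 204 and 300 CPM in the Merkel libraries and 58.1 and 46 CPM in the IFE libraries (log2 fold change 2.27, SE 0.35, adjusted p = 0.00286). Pola1 lost its call without IFE library 1 (adjusted p = 0.112) and IFE library 2 (adjusted p = 0.0727). Rb1 lost its call without IFE library 2 (adjusted p = 0.0506).

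**Figure D3:**
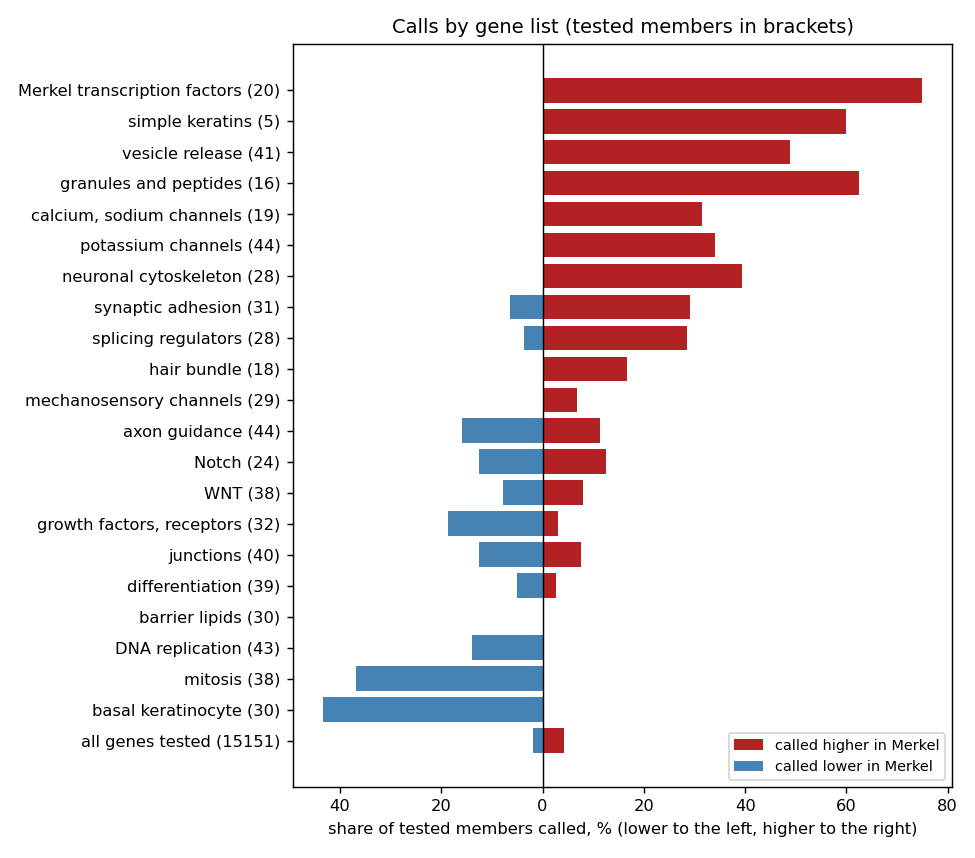
Share of the tested members of each gene list called higher (red, right) or lower (blue, left) in paw Merkel cells, in percent, with the number tested in brackets. Merkel transcription factors, the gate gene Atoh1 among them, reach 75.0% higher and basal keratinocyte genes 43.3% lower, against 4.28% and 1.93% of all genes tested. Lists were chosen with earlier results of these data known.

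The 2 Merkel libraries parted in several gene lists. Merkel library 1 was the higher for 88.5% of early response and heat shock genes and 78.9% of mitosis genes. It was the higher for 29.5% of potassium channels and 53.0% of all genes tested. Terminal differentiation genes parted most, with a median log2 ratio of library 1 to library 2 of 2.09, against 0.105 over all genes. Of 39 tested genes 1 was higher and 2 lower (median log2 fold change -1.09), but the lower count was 14 without Merkel library 1, 2 without Merkel library 2, 2 without IFE library 1 and 0 without IFE library 2. The calls made 2.56% higher and 5.13% lower, against 4.28% and 1.93% of all genes tested. Merkel library 1 was above Merkel library 2 for 36 of the 39, or 92.3%, against 53.0% of all genes tested. The median member stood at 74.6% of the IFE mean in Merkel library 1 and 6.72% in library 2, and the list summed to 8189 and 1753 CPM in the Merkel libraries and 8989 and 15616 CPM in the IFE libraries. Krt10, a keratin of the layers above the basal one, measured 2544 and 142 CPM in the Merkel libraries and 2646 and 5565 CPM in the IFE libraries (log2 fold change -1.61, SE 0.92, adjusted p = 0.355). Its partner Krt1 measured 2575 and 243 CPM in the Merkel libraries and 3307 and 4929 CPM in the IFE libraries (log2 fold change -1.55, SE 0.77, adjusted p = 0.284). Krt2, a keratin of late differentiation, measured 257 and 0.184 CPM in the Merkel libraries and 154 and 213 CPM in the IFE libraries (log2 fold change -0.52, SE 1.69, adjusted p = 0.904). For these keratins Merkel library 1 lay at or close to the IFE libraries and Merkel library 2 below them. The skin protease Asprv1 had the same arrangement, at 86.5 and 0.0922 CPM in the Merkel libraries and 26.6 and 61.7 CPM in the IFE libraries (log2 fold change -0.03, SE 1.38, adjusted p = 0.998). The called members were the desmosomal cadherins Dsg1a, at 225 and 57.2 CPM in the Merkel libraries and 596 and 1016 CPM in the IFE libraries (log2 fold change -2.51, SE 0.55, adjusted p = 0.0202), and Dsg1b, at 132 and 28.8 CPM in the Merkel libraries and 345 and 577 CPM in the IFE libraries (log2 fold change -2.52, SE 0.59, adjusted p = 0.0275), both lower, and the transcription factor Klf4, higher at 369 and 492 CPM in the Merkel libraries and 177 and 169 CPM in the IFE libraries (log2 fold change 1.31, SE 0.35, adjusted p = 0.0484). Dsg1a lost its call without IFE library 2 (adjusted p = 0.117), and its log2 fold change was -3.82 without Merkel library 1 and -1.84 without Merkel library 2. Dsg1b lost its call without IFE library 2 (adjusted p = 0.154), and its log2 fold change was -4.0 without Merkel library 1 and -1.8 without Merkel library 2. Klf4 lost its call without Merkel library 2 (adjusted p = 0.179), IFE library 1 (adjusted p = 0.232) and IFE library 2 (adjusted p = 0.265).

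Without Merkel library 1 the log2 fold changes were -4.85 for Krt10 (adjusted p = 0.00363), -4.08 for Krt1 (adjusted p = 0.00174) and -9.91 for Krt2 (adjusted p = 0.0279), all called lower. Genes of barrier lipids, which seal the outer skin, had 0 calls of 30 and 5 lower without Merkel library 1. Keratins of stress and sole skin had 1 lower of 10, Krt16, at 4.17 and 7.65 CPM in the Merkel libraries and 28.5 and 62.9 CPM in the IFE libraries (log2 fold change -2.95, SE 0.73, adjusted p = 0.0368). Krt16 lost its call without Merkel library 1 (adjusted p = 0.0726), Merkel library 2 (adjusted p = 0.0782), IFE library 1 (adjusted p = 0.0702) and IFE library 2 (adjusted p = 0.331). Basal genes, at 28.8% and 24.1% of the IFE mean, lay closer together in the Merkel libraries than differentiation genes did. Whether keratinocyte RNA entered Merkel library 1 was not tested.

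**Figure D4:**
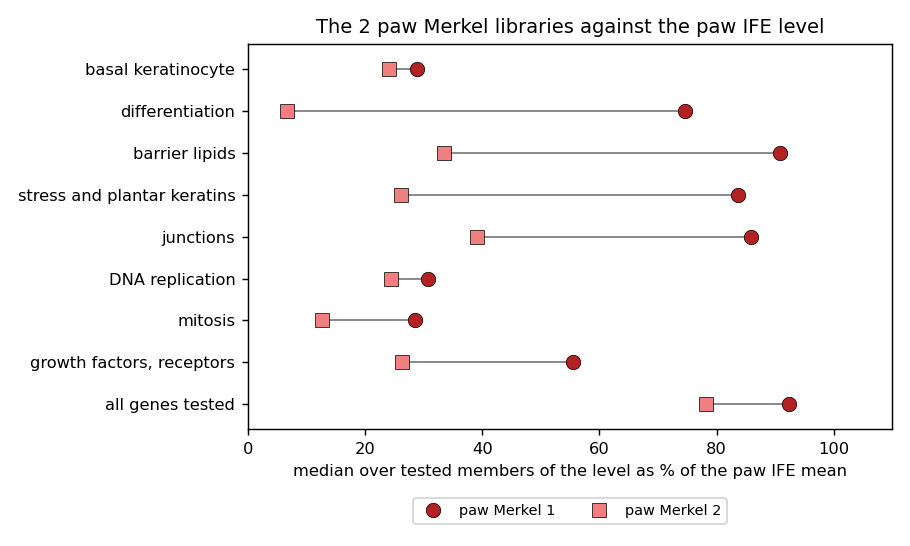
Median level of the tested members of 9 gene lists in each Merkel library, in percent of the mean of the paw IFE libraries (dark circle, library 1, and light square, library 2). Differentiation genes lie at 74.6% and 6.72%, while basal keratinocyte genes lie at 28.8% and 24.1%.

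Genes much higher in Merkel library 2 than in Merkel library 1 were seen as well. Meg3, an imprinted long RNA, measured 28.4 and 1131 CPM in the Merkel libraries and 9.21 and 3.5 CPM in the IFE libraries (log2 fold change 6.51, SE 1.37, adjusted p = 0.0166). Kcng3, a modifier subunit of potassium channels, measured 0.0479 and 64.1 CPM in the Merkel libraries and 0.856 and 0.197 CPM in the IFE libraries (log2 fold change 5.9, SE 2.64, adjusted p = 0.234). Schip1 measured 4.98 and 106 CPM in the Merkel libraries and 0 counts in the IFE libraries, at least 589.7-fold higher than in IFE cells, though 39.1% of its exonic bases are shared with another annotated gene. High in Merkel library 1 alone, Pirt, a regulator of sensory channels, measured 50.9 and 1.29 CPM in the Merkel libraries and 0 and 0.691 CPM in the IFE libraries (log2 fold change 6.24, SE 2.54, adjusted p = 0.187). In all, 831 genes were over 4-fold higher in Merkel library 1 and 578 in Merkel library 2. Meg3 lost its call without Merkel library 2 (adjusted p = 0.143), IFE library 1 (adjusted p = 0.0683) and IFE library 2 (adjusted p = 0.117), and its log2 fold change was 7.47 without Merkel library 1. The bound for Schip1 was at least 1581 without Merkel library 1 and at least 74.4 without Merkel library 2.

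Markers of other cells were measured to see what else the gates held. The shares called lower were 23.5% of immune and 16.7% of fibroblast markers, against 1.93% of all genes tested. Immune and Langerhans cell markers had 4 of 17 lower and 0 higher, and the lower count was 4 without Merkel library 1, 0 without Merkel library 2, 1 without IFE library 1 and 1 without IFE library 2. They summed to 15.9 and 2.21 CPM in the Merkel libraries and 69.4 and 86 CPM in the IFE libraries, and 3 genes held 65.2% of the IFE sum. H2-Aa, a class II antigen-presenting molecule, measured 1.05 and 0.0922 CPM in the Merkel libraries and 15.5 and 7.7 CPM in the IFE libraries (log2 fold change -4.22, SE 1.12, adjusted p = 0.0487). Fibroblast markers had 2 of 12 lower (3 without Merkel library 1, 1 without Merkel library 2, 1 without IFE library 1 and 1 without IFE library 2) and summed to 306 and 254 CPM in the Merkel libraries and 953 and 902 CPM in the IFE libraries, with 3 genes holding 57.3% of the IFE sum and the collagen Col5a1 at 7.76 and 4.89 CPM in the Merkel libraries and 178 and 109 CPM in the IFE libraries (log2 fold change -4.5, SE 0.69, adjusted p = 0.00275). Not all members were lower: 5 of 17 immune markers and 1 of 12 fibroblast markers stood above both IFE libraries in Merkel library 1, and 0 and 1 in Merkel library 2. Of all 15151 genes tested, 5832 did so in Merkel library 1 and 5876 in Merkel library 2, which is a larger share. Thy1, a surface protein of fibroblasts and some immune cells, measured 4.31 and 0.0922 CPM in the Merkel libraries and 91.8 and 85 CPM in the IFE libraries (log2 fold change -5.27, SE 1.24, adjusted p = 0.0294). Endothelial markers had 0 calls of 7 and summed to 2.97 and 1.01 CPM in the Merkel libraries and 5.58 and 4.89 CPM in the IFE libraries. Schwann cell markers had 0 calls of 7, or 2 lower without Merkel library 1, and summed to 128 and 39.7 CPM in the Merkel libraries and 163 and 145 CPM in the IFE libraries, with Sox10 at 2.35 CPM in Merkel library 1 and at 0 in Merkel library 2 and in both IFE libraries. Muscle markers had 0 calls of 3 tested and erythroid markers 0 of 1. The part of these cells in the results was not tested. H2-Aa lost its call without Merkel library 2 (adjusted p = 0.201), IFE library 1 (adjusted p = 0.173) and IFE library 2 (adjusted p = 0.0766), and its log2 fold change was -6.87 without Merkel library 1. Thy1 lost its call without Merkel library 2 (adjusted p = 0.0579), IFE library 1 (adjusted p = 0.0813) and IFE library 2 (adjusted p = 0.0766), and its log2 fold change was -9.8 without Merkel library 1.

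Melanocyte markers had 1 of 6 higher, the receptor Kit, at 194 and 185 CPM in the Merkel libraries and 0.815 and 0.296 CPM in the IFE libraries (log2 fold change 8.38, SE 0.62, adjusted p = 1.67e-05), and their median log2 fold change was 3.46 (3.33 at bounds). That median was -0.90 without Merkel library 1. The 1 call made 16.7% of the list, against 4.28% of all genes tested. Of members named after their values were seen, Mitf, a transcription factor of pigment cells, measured 11.3 and 21.2 CPM in the Merkel libraries and 2.89 and 4.54 CPM in the IFE libraries and did not pass the threshold (adjusted p = 0.199). Ednrb and Sox10, also of the neural crest, had reads in Merkel library 1 and none in Merkel library 2. Ednrb measured 6.09 and 0 CPM in the Merkel libraries and 0.204 and 0 CPM in the IFE libraries (adjusted p = 0.418). Of the genes that define pigment cells, Pmel measured 5.7 and 1.29 CPM in the Merkel libraries and 3.95 and 5.08 CPM in the IFE libraries. Dct measured 1.25 and 0 CPM in the Merkel libraries and 0.815 and 0.0493 CPM in the IFE libraries, and neither gene passed the threshold (adjusted p = 0.928 and 0.935). Sensory neuron markers had 3 higher of 10: the homeodomain factors Prrxl1, at 203 and 308 CPM in the Merkel libraries and 0.0815 and 0.296 CPM in the IFE libraries (log2 fold change 10.4, SE 0.63, adjusted p = 3.62e-06), and Pou4f1, at 41.9 and 132 CPM in the Merkel libraries and 0.122 and 0.197 CPM in the IFE libraries (log2 fold change 9.05, SE 0.75, adjusted p = 3.5e-05), and the actin regulator Avil, at 146 and 149.6 CPM in the Merkel libraries and 1.55 and 6.46 CPM in the IFE libraries (log2 fold change 5.21, SE 0.71, adjusted p = 0.0012). Their median log2 fold change was 3.30 (3.30 at bounds), and 30.0% of them were called higher, against 4.28% of all genes tested. Among members that were not called, also named after their values were seen, the homeodomain factor Tlx3 measured 3.12 and 1.94 CPM in the Merkel libraries and 0 counts in the IFE libraries (adjusted p = 0.0947) and the sodium channel Scn11a 2.78 and 5.62 CPM in the Merkel libraries and 0 and 0.0987 CPM in the IFE libraries (adjusted p = 0.214), and the filament Prph measured 0 counts in the Merkel libraries and 0.815 and 2.37 CPM in the IFE libraries (adjusted p = 0.219). Markers of hair follicle (0 calls of 13) and sweat gland (0 of 8) gave no calls, and without Merkel library 1 they gave 1 higher and 1 lower. Kit had a log2 fold change of 9.29 without IFE library 1. Prrxl1 had a log2 fold change of 9.72 without IFE library 1 and 11.49 without IFE library 2. Pou4f1 had a log2 fold change of 9.65 without Merkel library 1 and 8.0 without Merkel library 2. Avil had a log2 fold change of 4.51 without IFE library 1 and 6.57 without IFE library 2.

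Early response and heat shock genes, which can be induced while tissue is dissociated, had 1 higher and 2 lower of 26, and the lower count was 5 without Merkel library 1, 0 without Merkel library 2, 3 without IFE library 1 and 0 without IFE library 2. The calls made 3.85% higher and 7.69% lower, against 4.28% and 1.93% of all genes tested, so the higher share was near that of all genes. Egr1 measured 1115 and 966 CPM in the Merkel libraries and 395 and 525 CPM in the IFE libraries (log2 fold change 1.18, SE 0.3, adjusted p = 0.041). Hspa1b, a heat shock chaperone, measured 27 and 11.6 CPM in the Merkel libraries and 50.5 and 816 CPM in the IFE libraries (log2 fold change -4.48, SE 0.99, adjusted p = 0.0219), so that its IFE level came from IFE library 2. Other genes with that arrangement were Cyr61, a secreted matrix protein induced by serum, at 10.1 and 0.553 CPM in the Merkel libraries and 35.2 and 545 CPM in the IFE libraries (log2 fold change -5.73, SE 1.38, adjusted p = 0.0325), the chemokine Cxcl1 at 0.719 and 0.0922 CPM in the Merkel libraries and 11.2 and 96.7 CPM in the IFE libraries (log2 fold change -6.94, SE 1.64, adjusted p = 0.0295), and Serpinb2, a protease inhibitor, at 4.27 and 4.15 CPM in the Merkel libraries and 12.5 and 239 CPM in the IFE libraries (log2 fold change -4.9, SE 1.22, adjusted p = 0.0372). Egr1 lost its call without IFE library 1 (adjusted p = 0.334) and IFE library 2 (adjusted p = 0.149). Hspa1b lost its call without Merkel library 2 (adjusted p = 0.179) and IFE library 2 (adjusted p = 0.529), and its log2 fold change was -5.22 without Merkel library 1 and -5.4 without IFE library 1. Cyr61 lost its call without Merkel library 2 (adjusted p = 0.157) and IFE library 2 (adjusted p = 0.283), and its log2 fold change was -9.02 without Merkel library 1 and -6.64 without IFE library 1. Cxcl1 lost its call without Merkel library 2 (adjusted p = 0.171) and IFE library 2 (adjusted p = 0.339), and its log2 fold change was -9.09 without Merkel library 1 and -7.79 without IFE library 1. Serpinb2 lost its call without Merkel library 1 (adjusted p = 0.0963), Merkel library 2 (adjusted p = 0.213) and IFE library 2 (adjusted p = 0.628), and its log2 fold change was -5.83 without IFE library 1.

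The highest levels per transcript length were read from the deposited FPKM values, which are scaled for length so that genes can be set beside each other. Ccer2 led the Merkel cells at 18602 and 17355 FPKM, against 14.2 and 16.5 FPKM in IFE cells. It lies at chromosome 7, 28756174 to 28758968, and 29.8% of its exonic bases overlap Nfkbib on the opposite strand, so reads of the pair may not be told apart. Its counts scaled to 1637 and 939.9 CPM in the Merkel libraries and 1.22 and 1.18 CPM in the IFE libraries (log2 fold change 10.06, SE 0.59, adjusted p = 3.19e-06). Miat, a long non-coding RNA (chromosome 5, 112213228 to 112229395) with 30.4% of its exonic bases shared with another annotated gene, measured 1609.7 and 2965 FPKM against 2.65 and 1.61 FPKM, and its counts scaled to 11264 and 16347 CPM in the Merkel libraries and 19.4 and 11.2 CPM in the IFE libraries (log2 fold change 9.82, SE 0.63, adjusted p = 6.18e-06). Klf7, a transcription factor of neurons, measured 649 and 1390 FPKM against 96.4 and 89 FPKM, though 39.4% of its exonic bases are shared. By counts Miat was above Ccer2 in both Merkel libraries. The order of the pair therefore depends on whether FPKM or counts are read. The transcript lengths behind the FPKM values are not given in the sources used here, and the cause of the difference was not tested.

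In IFE cells the highest FPKM belonged to Krt5, at 10789.5 and 9947 FPKM against 935 and 428 FPKM in Merkel cells. H19, an imprinted long RNA of growing tissue, measured 4921 and 5794 FPKM against 1144 and 373 FPKM, and its counts scaled to 1902 and 498 CPM in the Merkel libraries and 8714 and 9482 CPM in the IFE libraries (log2 fold change -2.92, SE 0.54, adjusted p = 0.00846). Its neighbour Igf2, a growth factor, measured 405 and 108 CPM in the Merkel libraries and 2311 and 1902 CPM in the IFE libraries by counts (log2 fold change -3.04, SE 0.53, adjusted p = 0.00581), and 64.5% of its exonic bases are shared with another annotated gene. Between 10 and 16 genes per paw library were listed at 0 FPKM in spite of over 100 counts, Malat1 in Merkel library 2 among them, and such zeros are not read as absence. H19 had a log2 fold change of -4.19 without Merkel library 1 and -2.26 without Merkel library 2. Igf2 had a log2 fold change of -4.28 without Merkel library 1 and -2.38 without Merkel library 2.

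Whether the difference between Merkel and IFE cells itself differed between paw and back skin was tested as an interaction over all 8 libraries. No gene passed by edgeR (0 of 15151, 0.0%), while 1365 had an unadjusted p under 0.05, limma-trend called 0 and DESeq2 called 301. Krt20 had a log2 fold change of 10.31 in the paw and 10.9 in back skin, and Piezo2 6.19 and 7.52 (interaction adjusted p = 0.802 and 0.531). Back IFE library 2 correlated more closely with the paw IFE libraries (0.931 and 0.918) than with back IFE library 1 (0.897), and without it the edgeR test called 1 gene. Without paw Merkel library 2 or back IFE library 1 it called 5.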

How the data were processed

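RNA sequencing was analysed in 4 paw libraries, with the 4 back skin libraries of the series entering the shared fit. The authors deposited whole-number gene counts for 24538 genes and FPKM values, fragments per kilobase of transcript and per depth of the library. Per the submitters' processing notes the genome build was mm10 and the tools were TopHat2 2.0.13, Cufflinks 2.2.1, featureCounts, Subread 1.4.6 and DESeq2 1.6.3. The gene annotation and the strand setting are not given in the sources used here, so reads of overlapping genes may not be told apart. RNA was amplified before library construction, per the labels' protocols. Values of genes with near-identical copies elsewhere are uncertain. Gapdh had 11 to 128 counts per paw library, and the cause was not tested.

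Low-count genes were removed with filterByExpr over all 8 libraries, which left 15151. Counts were fitted with edgeR 4.0.16 in R 4.3.3 (TMM, glmQLFit, glmQLFTest), with 1 mean for each of the 4 groups over 8 libraries and 4 residual degrees of freedom. P-values were adjusted by the Benjamini-Hochberg method over all genes tested, with a threshold of 0.05. Fold changes of genes at 0 in a group were bounded with a floor of 3 counts over the group, and ratios against 1 to 3 counts carry 95% Poisson intervals. Both cover counting error only. FPKM were tested as an alternative with limma 3.58.1 on log2(FPKM + 1). The fit was also run on simulated data. The outcome is not reported here, and no result above rests on it.

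There were 39 gene lists. Genes were named by rule: the markers and gate genes, up to 4 called members of each list in each direction with the smallest adjusted p, the 12 largest called changes in each direction at 20 CPM or more, the 10 largest differences in each direction between the Merkel libraries at 50 CPM or more, the 15 highest FPKM of each cell type, and defining markers of other cells. Some genes that the rule gave are not reported here. Members and lists were chosen with earlier results of these data known. Alternatives were DESeq2 1.42.0, limma-trend, other scalings and filters, the 4 paw libraries alone, a replicate block, thinned libraries, FPKM, and leaving out each library. Positions are from GENCODE vM21, where 188 of 189 genes looked up were found. Promoters are from RefSeq on GRCm38.p6, with an entry for 11500 of the 15151 genes.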

Additional observations from a re-analysis of the deposited data

Results flagged for a closer look

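Among the 158 genes named by rule or in the text, 2 stood out: every paw library and every back library gave opposite directions of Merkel against IFE cells for them. Egr1, an early response transcription factor, measured 1115 and 966 CPM in the Merkel libraries and 395 and 525 CPM in the IFE libraries of the paw, while in back skin it measured 592 and 509.7 CPM in the Merkel libraries and 977 and 1018 CPM in the IFE libraries. The log2 difference between the 2 contrasts was 2.03 and did not pass the edgeR interaction test (adjusted p = 0.223). Epcam, a gene of the sort gate, measured 317 and 325 CPM in the Merkel libraries and 182 and 209.6 CPM in the IFE libraries of the paw and 268, 267, 344 and 349.9 CPM in the back Merkel and back IFE libraries in the same order. Its log2 difference was 1.09 (edgeR interaction adjusted p = 0.488).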

How the results depend on the processing

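The count of genes called between paw Merkel and paw IFE cells (941) rose to 2364 with DESeq2 and to 1920 without a filter on low counts. It fell to 537 with the 4 paw libraries alone, to 441 with log2(FPKM + 1) and to 446 with log2(FPKM + 0.1). Leaving out 1 library gave 392 to 2167 calls, the lowest without paw IFE library 2 and the highest without paw Merkel library 1. The cause of these shifts was not tested. With limma-trend, other scalings, a filter at 10 CPM, thinned libraries and a filter at 1 FPKM the count stayed between 869 and 1096.

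The interaction with skin site gave 301 calls with DESeq2, 305 without a filter on low counts, 4 with the replicate block, 2 with FPKM of at least 1, 1 with RLE size factors, and 0 to 5 when 1 library was left out. The interaction was not run on the 4 paw libraries alone, which hold 1 skin site.

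The labels do not say whether libraries of the same number were paired. The replicate differences of paw Merkel and paw IFE cells correlated at 0.0027 across genes. This value cannot decide it, since 15.0% of genes at 10 CPM or more differed over 4-fold between the Merkel libraries, which could hide a shared part. A replicate block gave 1144 calls, 924 of them among the 941.

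Of 142 called genes that the naming rule and text gave, 0 reversed under any alternative, 78 stayed called without any 1 paw library and 56 under every alternative. Some genes that were not called changed sign or fell to 0. Leaving out 1 library gave log2 fold changes of -9.91 to 0.48 for Krt2, -8.80 to 0.97 for Asprv1, -5.96 to 3.50 for Dct, -3.30 to 7.29 for Kcng3, -3.97 to 8.71 for Ednrb, 0.00 to 8.49 for Sox10 and -1.80 to 0.34 for Pmel. Asprv1 was at 0.048 without TMM and 0.0027 with the 4 paw libraries alone. Dct was at -0.076 with the replicate block. Depth limited the test to 15151 of 24538 genes.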
